A study of Homo sapiens with 2 samples.

Results

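The TNF superfamily is a set of ligands, most of them membrane-bound or shed trimers, and of the receptors that bind them. Members were taken by gene symbol: all symbols of the form TNFSF or TNFRSF followed by a number and at most 1 letter, plus TNF, LTA, LTB, LTBR, FAS, FASLG, CD27, CD40, CD40LG, CD70, NGFR, EDAR and EDA2R. This gave 38 of the 22465 genes that a probe set with a single gene symbol represents on the array, namely 15 ligands, 7 receptors with a death domain, 2 decoy receptors and 14 other receptors. A further 6 family symbols (TNFSF12, TNFRSF1B, TNFRSF6B, TNFRSF10C, TNFRSF13B and TNFRSF25) occur only on probe sets that carry several symbols. They were left out of the gene values, and CD40LG was not analysed here.

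The samples were IGROV1-R10, a line derived from the human ovarian carcinoma line IGROV1, transfected either with a miR-491-5p duplex or with a control miRNA duplex, each at 20 nM and 24 hours after the cells were seeded. Both cultures thus received a duplex and the transfection reagent INTERFERin, and an untransfected culture was not analysed here. Total RNA (100 ng per array) was labelled for Affymetrix whole-transcript arrays, with 1 array per group. There is therefore no spread between cultures, no test between the groups and no p-value. The words "higher" and "lower" are used of this pair of arrays and of nothing beyond it.

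Receptors of this family pass a signal inward through short adaptor-binding regions. Those with a death domain recruit adaptors such as FADD or TRADD and can start caspase-driven apoptosis, whereas most of the others bind TRAF proteins and activate NF-κB and stress kinases, and decoy receptors bind ligand without passing on a full signal. In epithelial tumours TNF, FAS ligand and TRAIL are known both as triggers of cell death and as sources of inflammatory signalling.

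MicroRNAs bind messenger RNAs mainly through the seed, bases 2 to 8 of the mature strand. The delivered miRNA and the promoters of the members with the largest differences between the arrays (TNF, FAS and TNFRSF21) are shown first. They are given for reference, and no gene value below depends on them. In the miRNA the capitals mark the seed, whose perfect match in a transcript would read UCCCCAC. Transcript sequences were not used here, so sites in the members were not searched.
miR-491-5p: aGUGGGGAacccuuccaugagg

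The promoter sequences are the 250 bases before the transcription start in RefSeq on GRCh38.p14, 5′ to 3′ on the gene's strand. They lie at chr6:31575315-31575564 on the plus strand for TNF, at chr10:88990548-88990797 on the plus strand for FAS, at the most upstream of its listed starts, and at chr6:47309906-47310155 on the minus strand for TNFRSF21. Capitals mark matches, on either strand, to an NF-κB-type motif (GGGNNNNTCC), an AP-1 motif (TGANTCA) or a TATA box (TATAAA). These motifs were chosen with the array values known.
TNF: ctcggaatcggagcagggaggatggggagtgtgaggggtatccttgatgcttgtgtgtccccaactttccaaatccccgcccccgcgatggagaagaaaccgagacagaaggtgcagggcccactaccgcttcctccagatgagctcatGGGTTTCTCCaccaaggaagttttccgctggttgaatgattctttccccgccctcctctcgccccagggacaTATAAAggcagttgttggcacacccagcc
FAS: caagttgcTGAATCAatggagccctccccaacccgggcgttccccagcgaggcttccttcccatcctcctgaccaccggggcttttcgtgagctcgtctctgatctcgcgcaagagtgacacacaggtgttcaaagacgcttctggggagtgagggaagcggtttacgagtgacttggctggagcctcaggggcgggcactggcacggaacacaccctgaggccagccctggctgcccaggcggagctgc
TNFRSF21: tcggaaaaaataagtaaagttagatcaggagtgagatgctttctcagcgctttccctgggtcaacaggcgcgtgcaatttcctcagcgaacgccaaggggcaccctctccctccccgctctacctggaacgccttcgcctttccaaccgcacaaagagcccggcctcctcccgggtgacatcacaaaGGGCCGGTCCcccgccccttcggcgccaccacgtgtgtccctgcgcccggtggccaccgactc

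The NF-κB-type letters begin 101 bases before the start of TNF and 63 bases before that of TNFRSF21. A TATA box begins 29 bases before the start of TNF, and the AP-1 letters begin 242 bases before the chosen start of FAS. Of the other FAS windows, 1 held an NF-κB-type match and 1 held none of these motifs. RefSeq promoter windows (250 bases before to 50 after a start) were at hand for 25 of the 38 members, 35 windows in all. The NF-κB-type motif occurred in 13 of these 35 windows, against 22.6% of all 35116 windows, and the AP-1 motif in 9, against 7.71%. The 9 AP-1 windows belonged to 7 members. Of the 12 members with a window and above the signal filter defined below, 3 had an AP-1 match and 8 an NF-κB-type match. A member counts here if any of its windows matches. The share of all genes with a match was not computed, so these counts cannot be set against the window shares. TATAAA occurred in 6 windows, against 11.5% of all. Windows of a gene with several starts can overlap. LTB held 3 NF-κB-type matches in each of its windows, but its signal was near the filter (5.84 and 5.87 in its brightest probe set). Whether these motifs bear on the differences was not tested.

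Values are log2 signals as the authors deposited them, and a difference is miR-491-5p minus control, so that a size of 1 is 2-fold. A gene was taken as above the filter when the higher of its 2 values reached 5.55, the median over every probe set and both arrays together. Of the 38 members 22 were above it, 21 of them on both arrays, and 16 were not. The 14373 genes above the filter had a median difference of -0.07, with 95% of them between -0.68 and 0.37. All 10 ovarian and epithelial markers were above the filter, among them PAX8 (14.59 on the miR-491-5p array, 14.77 on the control array) and EPCAM (13.29 and 12.93). MUC16 (5.94 and 5.89), CLDN4 (6.24 and 6.39) and KRT7 (6.84 and 6.99) were the dimmest of them. Leukocytes make many of these ligands, and the common leukocyte antigen PTPRC read 4.68 and 4.76, below the filter. Of 13 measured leukocyte markers 4 were above it (CD3E, CD8A, CD79A and CD68), and CD68 was bright at 10.54 and 10.76. Above it were also 1 of 5 fibroblast markers, COL1A1, and 1 of 4 endothelial markers, CDH5 (11.10 and 13.23), whereas PECAM1, VWF and KDR were below. The samples were cultures of a cell line, not tissue, and why these markers gave signal was not tested.

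The family lay on the low side of the miR-491-5p array, with TNF itself, FAS and TNFRSF21 the farthest down. Of the 22 members above the filter 21 had a difference below 0, where 64.8% of all genes above the filter had one. After centring on the median of all genes, or after a loess correction on signal, LTB and NGFR turned positive and 19 of the 22 stayed below 0. The matching count for centring is 7040 of the 14373 genes above the filter, those below the median of all genes. Without any filter, 35 of 38 members were below 0, against 67.9% of all genes. The median difference of the 22 was -0.25, and -0.15 over all 38 members without a filter. At least 2-fold lower were 2 members, TNF and FAS, where 0.758% of all genes were, and 0 members were at least 2-fold higher (0.0487% of all genes). At least 1.5-fold lower were 4 members, TNFRSF21 and TNFRSF9 besides these, where 3.62% of all genes were, and 0 were at least 1.5-fold higher (0.675%). TNFRSF9 passed the filter through its control value alone, and among the 21 members above the filter on both arrays 3 were at least 1.5-fold lower, where 3.64% of all such genes were. TNF alone was at least 3-fold lower, as were 0.132% of all genes. Less RNA per cell and fewer cells that express a gene cannot be told apart in RNA of whole cultures.

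**Figure D1:**
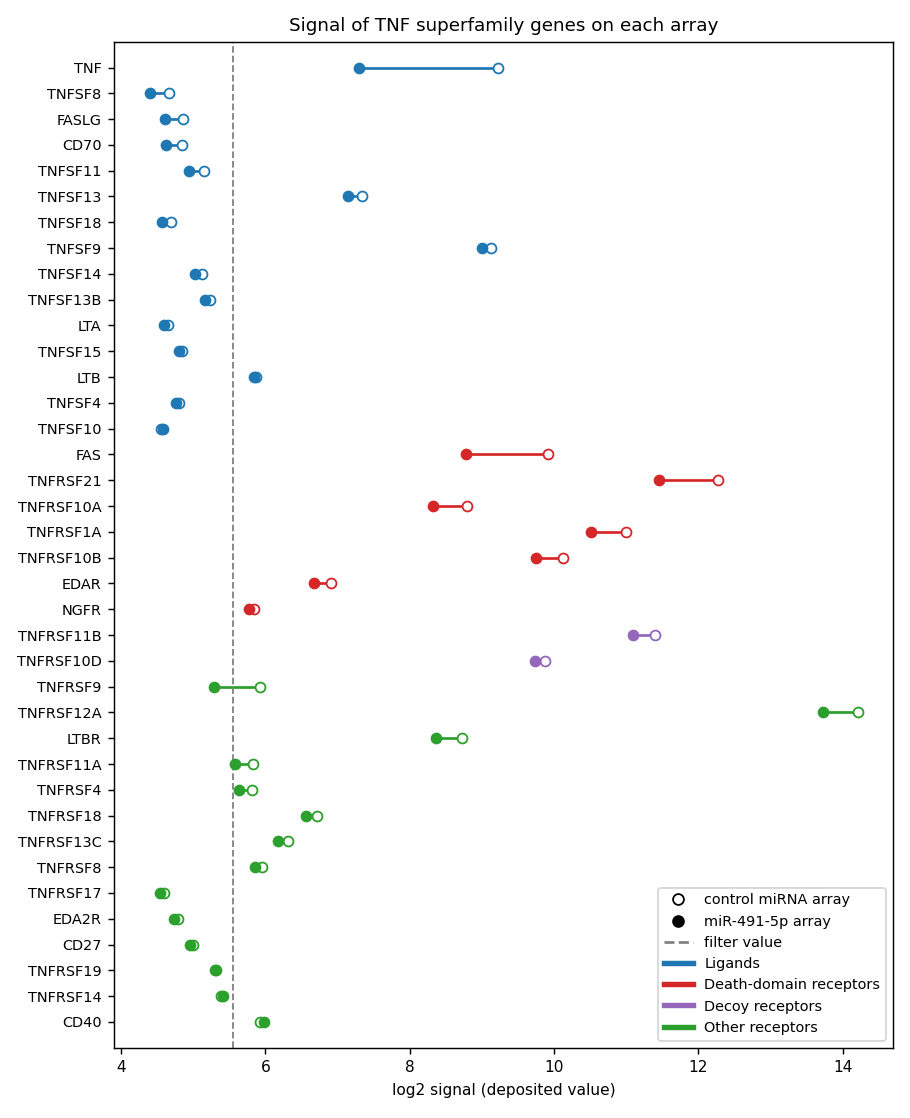
Log2 signal of the 38 members (rows, grouped by role) on the control array (open circles) and the miR-491-5p array (filled circles), 1 array each; the dashed line is the filter value of 5.55. TNF and FAS have the longest connecting lines, and 16 members lie left of the filter on both arrays.

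Of the 4 ligands above the filter, TNF was the single one past 1.5-fold. TNF, the inflammatory cytokine that gives the family its name, read 7.30 on the miR-491-5p array and 9.23 on the control array. This difference of -1.93 (3.81-fold lower) was the fourth lowest of all 14373 genes above the filter, since 4 of them (0.0278%) had a difference this low, TNF included. Among the 1905 genes whose mean signal lay within 0.5 of that of TNF, it was the only one so low.

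TNF lies in the major histocompatibility complex, of which the array also carries alternative haplotypes, and it is represented by 8 probe sets. The primary probe set and 6 haplotype probe sets held the same pair of values, 7.30 and 9.23. The remaining haplotype probe set read 7.03 and 9.05, a difference of -2.02. Probe sets with identical values were taken as 1 reading of TNF.

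LTA and LTB, the lymphotoxin genes that flank TNF directly in RefSeq's gene order, were close to equal on the arrays. LTB, which anchors lymphotoxin at the cell surface, read 5.84 and 5.87 in its brightest probe set (difference -0.03). Its 8 probe sets held 3 distinct pairs of values with differences of -0.14 to -0.03, and the primary one, at 5.15 and 5.29, was below the filter. LTA, the soluble lymphotoxin, was below the filter in all 7 of its probe sets and read 4.60 and 4.65 in the brightest.

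The remaining ligands above the filter were TNFSF9 and TNFSF13. TNFSF9, a costimulator of T cells that binds TNFRSF9, read 9.00 on the miR-491-5p array and 9.13 on the control array. TNFSF13, also called APRIL and known as a survival factor for plasma cells, read 7.14 and 7.34. Their differences of -0.13 and -0.20 lay inside the middle 95% of all genes. The ligands of the death receptors other than TNF were below the filter: FASLG, the ligand of FAS, read 4.61 and 4.86, and TNFSF10, which encodes TRAIL, read 4.59 and 4.56. The other ligands below it were CD70, TNFSF4, TNFSF8, TNFSF11, TNFSF13B, TNFSF14, TNFSF15 and TNFSF18. Over the 16 members below the filter, ligands and receptors together, values ran from 4.40 to 5.42 and differences from -0.27 to 0.03.

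All 7 measured receptors with a death domain were above the filter on both arrays, as were 13745 of all 22465 genes. Each had a negative difference, as did 64.8% of all genes above the filter, although NGFR differed by less than the median of all genes. NGFR read 0.01 after centring and 0.02 after the loess correction. TNFRSF25, a further receptor with a death domain, is among the symbols left out of the gene values. FAS, the receptor of FAS ligand and a p53 target, read 8.78 on the miR-491-5p array and 9.91 on the control array. Its difference of -1.13 (2.19-fold lower) was shared or exceeded by 0.473% of all genes, and by 9 of 1747 genes of similar mean signal. TNFRSF21, a death receptor known from neurons and T cells, read 11.46 and 12.27, a difference of -0.81 (1.75-fold lower) that 1.52% of all genes reached. Both lay below the middle 95% of all genes.

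The TRAIL receptors and the main TNF receptor were lower by less. TNFRSF1A, which carries most TNF signalling in non-immune cells, read 10.51 and 10.99 (difference -0.48). TNFRSF10A read 8.32 and 8.80, likewise a difference of -0.48, and TNFRSF10B read 9.75 and 10.13, a difference of -0.38. TNFRSF10A and TNFRSF10B each encode a receptor through which TRAIL induces apoptosis. These sizes are not rare on this array pair: 6.19% of all genes were at or below -0.48 and 9.81% at or below -0.38.

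The last pair of death domain receptors are developmental and neural. EDAR, the ectodysplasin receptor of hair, tooth and gland development, read 6.67 and 6.91 (difference -0.24). NGFR, the low-affinity neurotrophin receptor, read 5.78 and 5.84 (difference -0.06), close to the filter on both arrays.

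**Figure D2:**
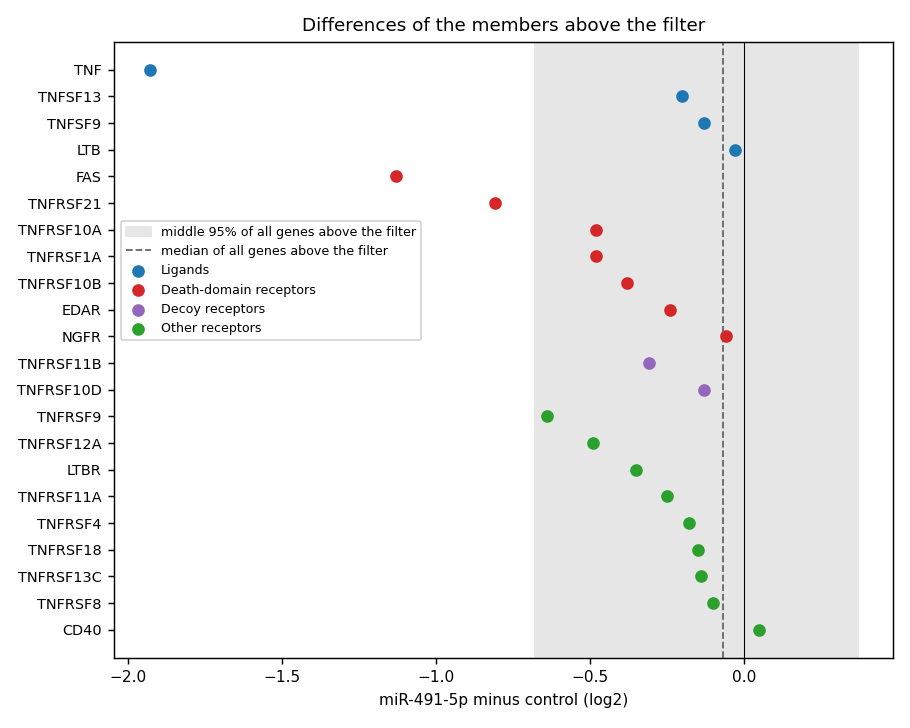
Differences (miR-491-5p minus control, log2, horizontal axis) of the 22 members above the filter, 1 point per gene coloured by role; the grey band is the middle 95% of all genes above the filter (-0.68 to 0.37) and the dashed line their median (-0.07). TNF, FAS and TNFRSF21 lie outside the band, and CD40 is the single member right of 0.

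Both measured decoy receptors had negative differences short of 1.5-fold, and TNFRSF6B and TNFRSF10C were left out of the gene values. TNFRSF11B, the secreted receptor osteoprotegerin that captures TNFSF11 and TRAIL, read 11.09 on the miR-491-5p array and 11.40 on the control array (difference -0.31). TNFRSF10D, a TRAIL receptor with a truncated death domain, read 9.74 and 9.87 (difference -0.13). In RefSeq's order TNFRSF10D lies next to TNFRSF10A, which differed by -0.48, so these neighbours did not differ by the same amount between the arrays.

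Among the other receptors, 9 of 14 were above the filter and none reached 2-fold. TNFRSF12A, the receptor of the cytokine TWEAK and known to be induced by growth factors and injury, read 13.72 and 14.21 (difference -0.49, 1.40-fold lower). LTBR, the receptor of membrane lymphotoxin and an activator of the non-canonical NF-κB route, read 8.37 and 8.72 (difference -0.35). TNFRSF9, the receptor of TNFSF9, read 5.29 and 5.93. Because only its control value reached the filter, its difference (-0.64) could not have been positive, and its miR-491-5p value is in the range of the members below the filter.

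The other 6 of these 9 receptors had differences from -0.25 to 0.05. TNFRSF11A, the receptor of TNFSF11 on osteoclast precursors, read 5.58 on the miR-491-5p array and 5.83 on the control array. The T cell costimulators TNFRSF4 (5.63 and 5.81) and TNFRSF18 (6.57 and 6.72), which lie next to each other, differed by -0.18 and -0.15. TNFRSF13C, the BAFF receptor of B cells, read 6.18 and 6.32, and TNFRSF8, a lymphoma marker, read 5.86 and 5.96. CD40, the costimulatory receptor of antigen-presenting cells, was the single member above the filter with a positive difference, at 5.98 and 5.93. CD27, EDA2R, TNFRSF14, TNFRSF17 and TNFRSF19 were below the filter.

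Death receptors were then set against the rest of the family. The median difference of the 7 death domain receptors was -0.48 (-0.40 after the loess correction), with a range from -1.13 to -0.06. That of the 15 other members above the filter was -0.18 (-0.09 after the loess correction), with a wider range from -1.93 to 0.05, so the lowest member of the family, TNF, is not a death receptor. At or below the lower quartile of all differences (-0.20, which 25.9% of all genes reached) were 6 of the 7 death receptors and 7 of the 15 others. At least 1.5-fold lower were 2 of 7 (FAS and TNFRSF21) and 2 of 15 (TNF and TNFRSF9). With both arrays above the filter, which leaves out TNFRSF9, the counts were 2 of 7 and 1 of 14.

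The gap between the medians, -0.30, moved with signal. The members without a death domain include many genes near the filter, and dim genes on this array pair spanned smaller differences at the 1.5-fold level: among genes with a mean signal of 8 or more, 5.07% were at least 1.5-fold lower, against 3.62% of all genes. At that signal 5 death receptors had a median of -0.48 and 6 other members (TNF, TNFSF9, TNFRSF10D, TNFRSF11B, TNFRSF12A and LTBR) one of -0.33, a gap of -0.15, and all 5 and 4 of 6 reached the lower quartile, as did 28.7% of the genes this bright. Genes are not replicates of a condition, so the gap carries no error and was not tested.

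**Figure D3:**
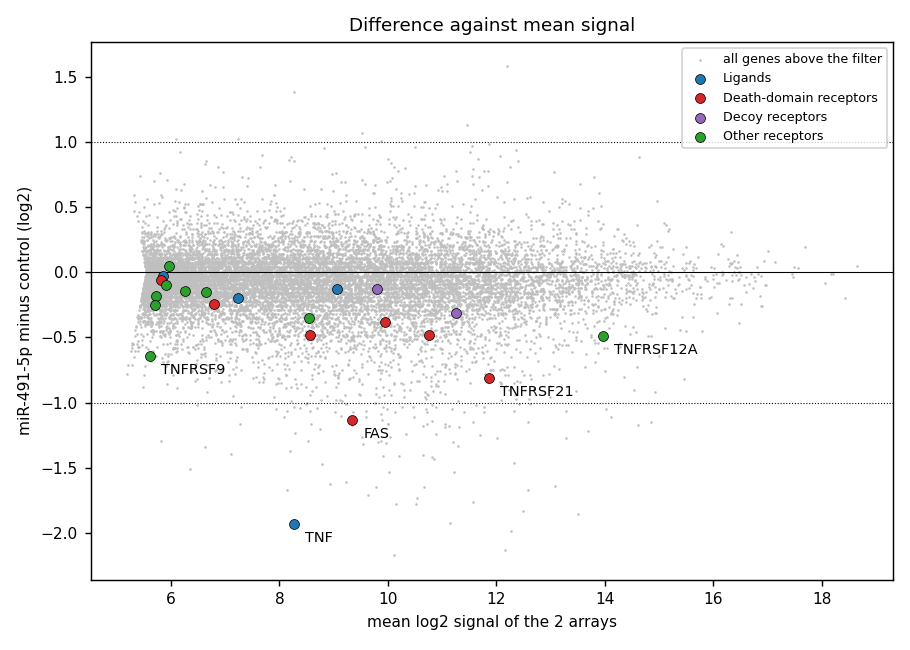
Difference (miR-491-5p minus control, log2, vertical axis) against the mean log2 signal of the 2 arrays (horizontal axis) for the 14373 genes above the filter (grey) and the 22 members (coloured by role); dotted lines mark 2-fold. TNF and FAS lie below the lower dotted line, and most members without a death domain lie at low signal.

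Ligands and their receptors were also read as pairs. TNF and its receptor TNFRSF1A were both above the filter, with differences of -1.93 and -0.48. TNFSF9 and TNFRSF9 were both above it on the control array, with differences of -0.13 and -0.64. For FAS, TNFRSF10A, TNFRSF10B and TNFRSF11A the receptor was above the filter while its family ligand (FASLG, TNFSF10 or TNFSF11) was not. The same held for receptors without a death domain: TNFRSF4, TNFRSF8, TNFRSF18 and TNFRSF13C were above it, and TNFSF4, TNFSF8, TNFSF18 and TNFSF13B were below. LTBR was above the filter with its ligand subunit LTB, while LTA, the partner subunit of LTB, and TNFSF14, another ligand of LTBR, were below.

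The genes that act on or below these receptors were described from 4 lists with 55 symbols, of which 46 were measured and 44 were above the filter. Their median difference was -0.12, against -0.25 for the 22 family members and -0.07 for all genes above the filter. After centring, the pathway median was -0.05 and the family median -0.18. After the loess correction they were -0.04 and -0.17. In these lists 1 gene was at least 2-fold lower and 3 were at least 1.5-fold lower (0.758% and 3.62% of all genes), and 0 were 1.5-fold higher. The gene past 2-fold was MAP3K5, which encodes ASK1, the kinase that links TNF receptors and oxidative stress to JNK and p38. It read 9.59 on the miR-491-5p array and 10.66 on the control array (difference -1.07), and under the loess correction it differed by -0.99.

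Among the 11 measured genes for downstream kinases and their partner proteins, MAP3K14, the NF-κB-inducing kinase of the non-canonical route, was next, at 10.45 and 11.32 (difference -0.87). The TAK1-binding proteins TAB2 and TAB3 differed by -0.25 and -0.20, and the JNK kinase MAPK9 by 0.20 (9.18 and 8.98). The kinases MAP3K7 (11.16 and 11.17), CHUK (8.76 and 8.78) and IKBKB (8.31 and 8.24) were nearly equal, and the median of this list was -0.08.

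Of the components and regulators of the receptor complexes, 15 were above the filter, with a median of -0.14. TNFAIP3, which encodes the NF-κB-induced brake A20, read 8.18 and 8.78 (difference -0.60), and its partner TNIP1 read 8.77 and 9.18 (difference -0.41). The adaptors TRAF3, which restrains MAP3K14, and TRAF5 differed by -0.52 and -0.47. The death adaptors TRADD (7.51 and 7.65) and FADD (8.12 and 8.28) and the initiator caspase CASP8 (9.43 and 9.50) differed by -0.14, -0.16 and -0.07. CYLD, a deubiquitinase that limits NF-κB, was the single positive gene of the list, at 8.52 and 8.21.

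The 7 genes of the execution of cell death above the filter had a median difference of -0.07, equal to that of all genes. MLKL, the effector of necroptosis, had the lowest difference of this list (9.59 and 9.99), and the caspases CASP6 (0.17) and CASP9 (0.14) had the highest. DIABLO, which relieves caspase inhibition, differed by -0.14. Among the 11 genes that shed ligands or control the stability of their messages, ADAM17, the protease that releases TNF from the cell surface, read 11.38 and 11.79 (difference -0.41), and SPPL2B, which cleaves the membrane stub of TNF, differed by -0.38. The messenger-destabilising proteins ZFP36L1 and ZFP36L2 went opposite ways, with differences of -0.52 and 0.51, although ZFP36L1 differed by -0.21 when its probe sets were averaged. By comparison, ZFP36, which is known to bind TNF mRNA, read 10.05 and 10.17.

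**Figure D4:**
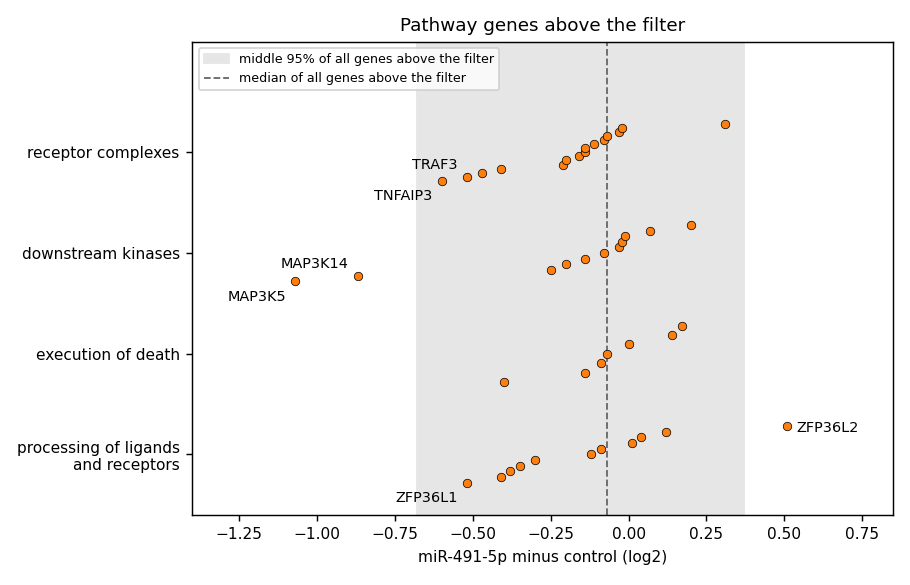
Differences (miR-491-5p minus control, log2, horizontal axis) of the 44 pathway genes above the filter, 1 point per gene, in 4 lists (rows); the grey band is the middle 95% of all genes above the filter and the dashed line their median, and genes at 0.5 or more from 0 are named. MAP3K5 and MAP3K14 lie below the band and ZFP36L2 above it.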

How the data were processed

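The deposited table holds log2 signals per transcript cluster (probe set), 1 column per array, which the authors produced by RMA, as the submitters' processing notes state. RMA's version is not given in the sources used here. The log base was assumed from RMA, and since values reach 19.22, a stretched scale is possible, so folds are powers of 2 of these values. Probe sets were named through GEO's platform annotation and RefSeq. Of 67528 probe sets, 23781 had 1 gene symbol, 1543 had several and 42204 had none, and each gene took its probe set with the highest mean. All 38 members matched RefSeq by Entrez ID. Differences were used as deposited; the filter was 5.55 and the thresholds 2-fold and 1.5-fold. Every member above the filter is named, and from each pathway list the 4 genes with the largest differences; other genes named were chosen after their values were seen. The members, roles and lists were chosen with earlier results of these data known. Alternatives were median centring, loess (span 0.3), averaging over probe sets, other filters, other thresholds and other memberships. Signal over background is unknown, and the number of arrays limits precision. Python 3.11.15, numpy 2.4.6, pandas 2.3.3 and statsmodels 0.14.6 were used.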

Additional observations from a re-analysis of the deposited data

How the results depend on the processing

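No paired analysis was possible because there is a single array in each group, and for the same reason no replicate was left out. Of 62 alternative values for counts and medians, 56 stayed within 1.5 times the count or 0.1 of the median. Within that margin some medians still moved by over 1.5 times: the family from -0.25 to -0.15 without a filter, the members other than death receptors from -0.18 to -0.09 under loess and -0.11 under centring, and the pathway genes from -0.12 to -0.04 and -0.05. The family median was -0.18 under centring and -0.17 under loess, and that of the death receptors -0.41 and -0.40. The number of members past the threshold on the low side was 4 at 1.5-fold and 1 at 3-fold, as against 2 at 2-fold, which follows from the thresholds. The loess correction left 0 pathway genes at 2-fold, because MAP3K5 went from -1.07 to -0.99. With a mean signal of 8 or more, chosen after seeing the data, the family median was -0.48, that of members other than death receptors -0.33, and the gap of death receptors to them -0.15; the cause was not tested. The gap was -0.35 to -0.30 under the other alternatives, which include leaving out TNF (-0.32) and leaving out the ligands (-0.30). Centring could not change the gap, since it shifts both sets by the same amount. Averaging probe sets could change only TNF and LTB among the 22 members. Centring moved each of the 22 members by 0.07, loess by 0.06 to 0.09 and mean probe sets by -0.03 to 0.00, and TNF and FAS stayed past 2-fold in each.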

Other observations

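Some genes related to the family by name or structure fall outside the symbol rule, and those given here were chosen after their values were seen. RELT, a receptor of the same superfamily, read 6.79 on the miR-491-5p array and 7.09 on the control array (difference -0.30). EDA, the ligand of EDAR, read 5.44 on both arrays, below the filter. Of genes first named for their induction by TNF, TNFAIP1, an adaptor of a ubiquitin ligase, read 11.09 and 11.94 (difference -0.85), TNFAIP2 read 11.24 and 11.77 (difference -0.53) and TNFAIP8 read 6.41 and 6.57 (difference -0.16).

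The 6 family symbols without a probe set of their own lie on 6 probe sets with several symbols, 4 of them above the filter. Their differences ran from -0.28 to 0.05.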
